A study of Homo sapiens with 8 samples.

Results

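The 10 genes described here are the cyclin E genes *CCNE1* and *CCNE2*, their kinase partner *CDK2*, the transcription factor genes *E2F1*, *E2F2*, *E2F3*, *E2F7* and *E2F8*, and the pocket protein genes *RB1* and *RBL1*. They were taken by name, through the RefSeq accession of each probe, and are 10 of the 22439 genes that could be named on the arrays. All 10 had at least 1 probe above background on each of the 8 arrays. *CCNE2*, *E2F3*, *E2F7* and *RBL1* have 2 probes each, and the other 6 genes have 1.

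Each Agilent array was hybridized with RNA of treated cells, labeled with Cy5 (red), and RNA of control cells of the same line, labeled with Cy3 (green), and no dyes were swapped. The transfection agent was Lipofectamine RNAiMAX. EBC-1 and SK-MES-1, which are lung squamous cell carcinoma (LUSQ) lines, received *miR-150-3p*, with 1 array per line. SBC-3, a small cell lung cancer line, received 1 of 3 siRNAs to *DONSON* on each of 3 arrays (siDONSON-1, -2 and -3), and A549, a lung adenocarcinoma line, had *LOXL2* edited by CRISPR/Cas9 on the other 3 (GE1, GE2 and GE3). The control of the transfections is called both mock and untransfected in the labels, and that of A549 unedited. Whether GE1, GE2 and GE3 are clones or pools, and whether the 3 arrays of a line share 1 control RNA, is not given in the sources used here. The p-values therefore measure the spread between these arrays, part of which may be technical. The study asked which genes *miR-150-3p* lowers in LUSQ cells. It put *CCNE1*, *CCNE2* and *E2F2*, and *MCM4* and *EZH2* of the E2F target genes below, on its list of candidate targets with the help of these EBC-1 values, so the EBC-1 values of those 5 genes are no independent evidence of their direction.

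RB1 and its relative RBL1 hold E2F transcription factors in check. Cyclin D kinases and then the cyclin E-CDK2 kinase phosphorylate the pocket proteins, and the released E2F proteins switch on genes of DNA replication, *CCNE1*, *CCNE2* and several E2F genes among them. E2F1, E2F2 and E2F3 are the activating E2F proteins, while E2F7 and E2F8 repress the same targets later in S phase. Loss of *RB1* is a hallmark of small cell lung cancer.

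The E2F site is the sequence through which members of this family act on each other, and the promoters that hold one are therefore shown. The 250 bases before the start site were searched on both strands for TTTCCCGC, TTTGGCGC, TTTCGCGC and TTTGCCGC. The set of RefSeq promoters used here (GRCh38.p14) is not complete. It held 7 of the 10 genes, *CCNE1*, *E2F1*, *E2F2*, *E2F3*, *E2F7*, *RB1* and *RBL1*. Of these, 4 (57.1%) held at least 1 match, against 2.79% of all 35116 start sites searched. *CCNE2*, *E2F8* and *CDK2* were not in the set, so whether their promoters hold a match was not tested. *E2F1* and *RBL1* had 2 matches each, and *E2F2* and *E2F3* had 1, the latter at the first of its 2 listed start sites. The 100 bases before the start site of these 4 genes read as follows on the strand of the gene, 5′ to 3′, with the matches in capitals. They lie at chr20:33686386-33686485 (*E2F1*, minus strand), chr1:23531234-23531333 (*E2F2*, minus strand), chr6:20401779-20401878 (*E2F3*, plus strand) and chr20:37095998-37096097 (*RBL1*, minus strand).
E2F1: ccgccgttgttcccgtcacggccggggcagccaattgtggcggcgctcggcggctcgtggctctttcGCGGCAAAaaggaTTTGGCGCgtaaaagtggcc
E2F2: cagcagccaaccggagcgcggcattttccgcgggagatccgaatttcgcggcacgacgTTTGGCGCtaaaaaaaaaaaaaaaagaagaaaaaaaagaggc
E2F3: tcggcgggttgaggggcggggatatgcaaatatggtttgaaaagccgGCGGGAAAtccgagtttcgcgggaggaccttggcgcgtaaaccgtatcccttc
RBL1: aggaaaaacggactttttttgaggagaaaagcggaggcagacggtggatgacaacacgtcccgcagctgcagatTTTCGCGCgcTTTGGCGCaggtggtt
A match begins 16 and 26 bases before the start of *RBL1*, 20 and 33 before *E2F1*, 42 before *E2F2* and 53 before *E2F3*. The windows of *CCNE1*, *E2F7* and *RB1* held none of these letters, and that of *RB1* belongs to a start site within the gene.

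The arrays were checked by the targeted genes and by markers in the control channel. The log2 ratio of *DONSON*, a replication fork protein gene, was -2.02 with an SE of 0.16 over the 3 siRNA arrays (adjusted p = 0.00168; -0.89 with normexp, another model of the background), and that of *LOXL2*, a lysyl oxidase gene, was -2.58 with an SE of 0.23 over the 3 edited arrays (adjusted p = 0.00126). Of 6 squamous markers, 3 were above background in SK-MES-1 (*TP63*, *KRT14* and *SOX2*), but only *SOX2* was in EBC-1, where *TP63*, *KRT5*, *KRT6A*, *KRT14* and *DSG3* were not. SBC-3 had 4 of 6 small cell markers (*NEUROD1*, *SYP*, *CHGA* and *DLL3*), and *POU2F3* and *INSM1* were not above background. A549 had 2 of 5 adenocarcinoma markers (*NAPSA* and *KRT7*), and *NKX2-1*, *SFTPB* and *SFTPC* were not above background. The lists did not set the lines apart, since adenocarcinoma markers were above background in SK-MES-1 (3 of 5) and EBC-1 (2 of 5) as well, and *TP63* and *SOX2* in SBC-3 (2 of 6 squamous markers). After *miR-150-3p*, the marker *DLL3* fell (-0.65, adjusted p = 0.0267) and *KRT14* rose (1.45, adjusted p = 0.0295), and their part in the results was not tested. The median log2 ratio over all genes lay between 0.02 and 0.05 on every array.

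After *miR-150-3p*, all 10 genes had a log2 ratio below 0 on both arrays, as did 45.9% (EBC-1) and 47.5% (SK-MES-1) of all genes. The EBC-1 array had the lower ratio for each of the 10. Some signs on the SK-MES-1 array depended on the processing. *RB1* (-0.02) and *E2F7* (-0.00) lay close to 0 there and were 0.05 and 0.03 with normexp. *E2F3* was 0.04 there with its brightest probe alone. In EBC-1 the 10 ratios ran from -2.87 (*E2F2*) to -0.45 (*RB1*), with a median of -1.64, and 8 of 10 were below -1, as were 6.04% of all genes on that array. In SK-MES-1 they ran from -1.18 (*CCNE1*) to -0.00 (*E2F7*), with a median of -0.35, and 1 of 10 was below -1, as were 1.27% of all genes. The scanner software gives an error for each ratio, which covers noise within an array only. Its 95% limits left out 0 for all 10 genes on the EBC-1 array and for *CCNE1*, *CDK2*, *E2F1* and *E2F2* on that of SK-MES-1. The share of all genes outside such limits is not given here, so these counts cannot be set against a background. The line and its array cannot be told apart, since each line has 1 array. RNA of whole cultures was measured, so fewer cells that express a gene and less RNA per cell cannot be told apart either.

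**Figure D1:**
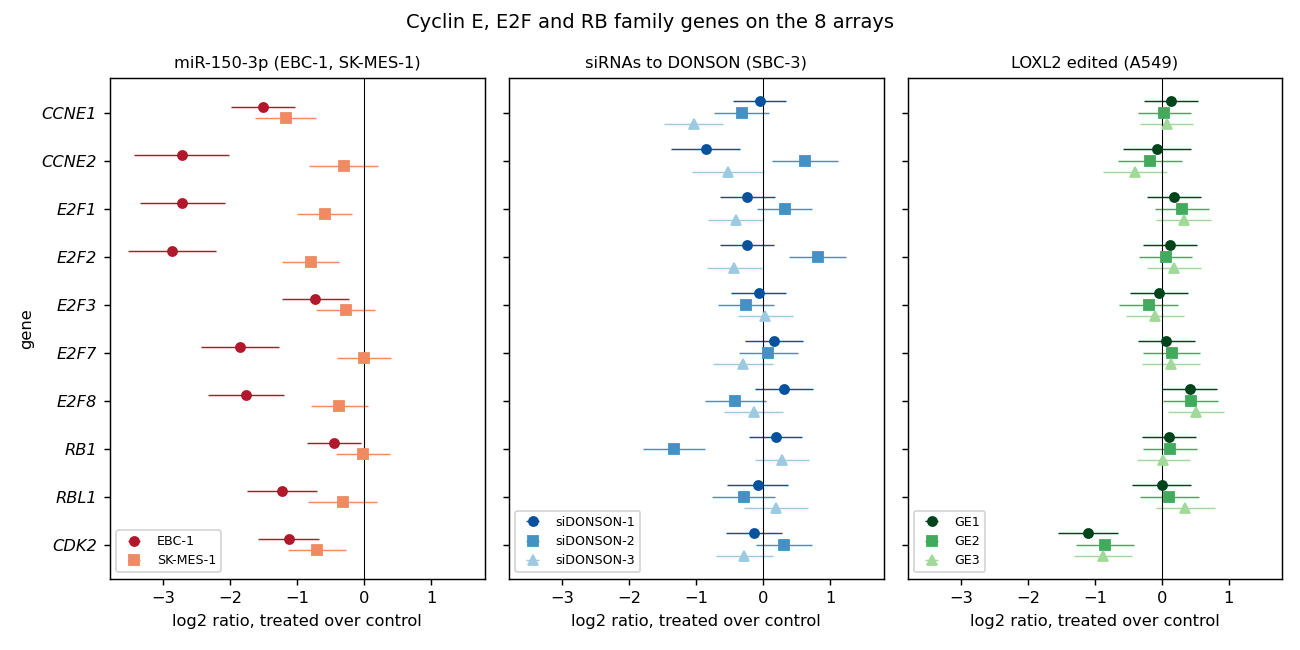
Log2 ratio (treated over control, x axis) of each of the 10 genes (y axis) on the 8 arrays, in panels for *miR-150-3p*, siRNAs to *DONSON* and edited *LOXL2*, with bars for the 95% limits of the scanner software's error. All 10 EBC-1 points lie left of 0, with *E2F2* at -2.87, and *CDK2* is the gene that lies left of 0 on both *miR-150-3p* arrays and on all 3 edited arrays with bars that do not reach 0.

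*CCNE1*, the cyclin that activates CDK2 at the end of G1, had a log2 ratio of -1.51 and -1.18 in EBC-1 and SK-MES-1, or 35.0% and 44.3% of the control. The lines were close to each other. With both arrays as 2 samples, the mean was -1.34 with an SE of 0.21, and *CCNE1* fell (adjusted p = 0.0261). *CCNE2*, the second cyclin E gene, had -2.73 and -0.31 in EBC-1 and SK-MES-1, so its SD over the arrays (1.71) was larger than its mean of -1.52 (SE 0.53, adjusted p = 0.109). The EBC-1 value of *CCNE2* rests on 1 of its 2 probes, as the other was not above background there, and was -0.49 with normexp.

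*CDK2*, the kinase that cyclins E and A activate, had ratios of -1.13 and -0.71 in EBC-1 and SK-MES-1 and fell, with a mean of -0.92 and an SE of 0.17 (adjusted p = 0.0329). *CCNE1* and *CDK2* were thus called of the 10 genes (2 of 10), where 2.9% of the 14230 genes tested were called lower. At an unadjusted p under 0.05 there were 9, all but *RB1*. No share of all genes at the unadjusted threshold is given here, for this count or the later ones, so they cannot be set against a background. Without the EBC-1 array neither gene passed (*CCNE1* -1.18 with adjusted p = 0.213, *CDK2* -0.71 with adjusted p = 0.257, over 1 array that was assumed to vary like the other groups). With no filter on dim probes *CDK2* did not pass (adjusted p = 0.0541, and up to 0.348 over all settings), and with normexp its mean was -0.43. Without the SK-MES-1 array, 9 of 10 passed, where 10.7% of all genes were called lower from EBC-1 alone.

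Among the activating factors, *E2F1* had a ratio of -2.72 and -0.59 in EBC-1 and SK-MES-1, or 15.2% and 66.4% of the control. *E2F2* had -2.87 and -0.80, or 13.7% and 57.4%. Both were far lower in EBC-1, and with such unlike arrays neither mean passed the test (*E2F1* -1.65, SE 0.41, adjusted p = 0.0595, and *E2F2* -1.83, SE 0.45, adjusted p = 0.0563). *E2F3* had -0.73 and -0.28 in EBC-1 and SK-MES-1 (mean -0.51, SE 0.14, adjusted p = 0.0681). The 2 probes of *E2F3* differed in EBC-1, at -0.31 for the brighter and -1.16 for the dimmer, so the size of its ratio depends on the probe.

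The repressor genes differed between the lines in the same way. *E2F7* had a log2 ratio of -1.85 in EBC-1, where its probes gave -2.01 and -1.69, and of -0.00 in SK-MES-1. *E2F8* had -1.77 and -0.37 in EBC-1 and SK-MES-1. The mean was -0.93 for *E2F7* (SE 0.35, adjusted p = 0.133) and -1.07 for *E2F8* (SE 0.30, adjusted p = 0.0721). *E2F8* is dim on these arrays, and its EBC-1 value was -0.42 with normexp.

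Of the pocket protein genes, *RBL1*, which encodes p107 and is itself an E2F target, had ratios of -1.23 and -0.32 in EBC-1 and SK-MES-1 (mean -0.78, SE 0.22, adjusted p = 0.0721). The EBC-1 value rests on the 1 probe above background there and was -0.26 with normexp. *RB1* had -0.45 and -0.02, and its EBC-1 ratio was the nearest to 0 of the 10 genes (mean -0.24, SE 0.35, adjusted p = 0.68).

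With normexp in place of the software's background subtraction, the EBC-1 ratio stayed below 0 for all 10 genes and below -1 for 3 of them, *E2F2* (-2.15), *E2F1* (-1.86) and *CCNE1* (-1.13). *E2F7* had -0.80, *CDK2* -0.57, *RB1* -0.29 and *E2F3* -0.20. In that setting *E2F1* and *E2F2* were called beside *CCNE1* and *CDK2*, 4 of 10 genes, where 5.1% of all genes were called lower.

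For 9 of 10 genes the 3 siRNAs to *DONSON* gave ratios on both sides of 0, and 0 of 10 passed in SBC-3 by limma, where 7.22% of 14454 genes were called. Only *CCNE1* had an unadjusted p under 0.05 (0.0278). *CCNE1* had log2 ratios of -0.05, -0.32 and -1.04 with siDONSON-1, -2 and -3, a mean of -0.47 ± 0.51 (SD, n = 3; adjusted p = 0.14). The low value came from siDONSON-3 alone, and without that array the mean was -0.19. *CCNE2* had -0.86, 0.63 and -0.52, so siDONSON-2 stood on the other side of 0. *E2F1* (-0.24, 0.33 and -0.40) and *E2F2* (-0.24, 0.82 and -0.43) were also highest with siDONSON-2. *CDK2* was as well, at -0.14, 0.31 and -0.28. For these 4 genes the siDONSON-2 ratio was above 0 and the other two were below it.

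*RB1* stood apart in the opposite direction, with 0.19 for siDONSON-1, -1.33 for siDONSON-2 and 0.28 for siDONSON-3. The siDONSON-2 array thus had *RB1* at 39.8% of the control. Its probe is printed 10 times on the array, and all 10 spots of siDONSON-2 lay between -1.43 and -1.19 (SD 0.072), while those of siDONSON-1 and siDONSON-3 were all above 0. These spots measure 1 labeled RNA and are not replicates of the treatment. The mean over the 3 siRNAs was -0.29 with an SE of 0.28 (adjusted p = 0.559), and 0.23 without siDONSON-2. On that array 2.84% of all genes were below -1. Whether the siRNA itself lowers *RB1* was not tested.

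**Figure D2:**
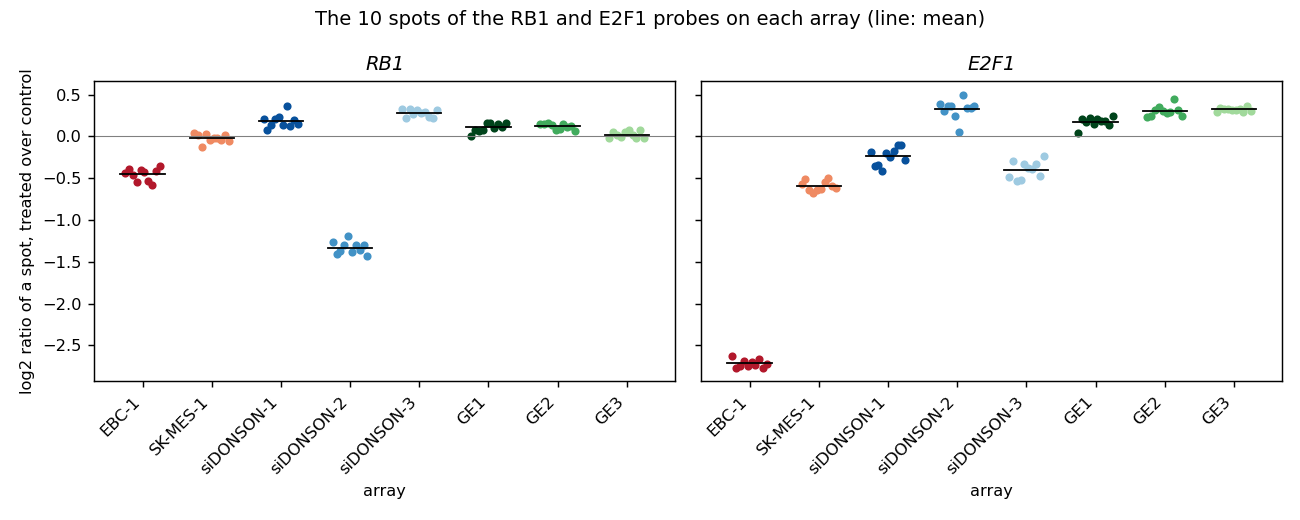
Log2 ratio (y axis) of each of the 10 spots of the *RB1* probe and of the *E2F1* probe on the 8 arrays (x axis), with a line at the mean of the spots. The *RB1* spots of siDONSON-2 lie between -1.43 and -1.19, apart from the other 7 arrays, and the *E2F1* spots of EBC-1 lie between -2.77 and -2.63.

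The ratios of the remaining genes of the family lay between -0.42 and 0.31 in SBC-3. *E2F3* had -0.06, -0.26 and 0.03, *E2F7* had 0.17, 0.08 and -0.30, *E2F8* had 0.31, -0.42 and -0.14, and *RBL1* had -0.08, -0.29 and 0.19 with siDONSON-1, -2 and -3. The 95% limits of the software's error took in 0 for all 12 of these values. The means of these 4 genes ran from -0.10 to -0.02, with SEs from 0.11 to 0.29.

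In A549 with edited *LOXL2*, *CDK2* fell and the other 9 genes did not pass the test. *CDK2* had log2 ratios of -1.11, -0.84 and -0.88 in GE1, GE2 and GE3, or 46.4%, 55.7% and 54.4% of the control. The mean was -0.94 ± 0.14 (SD, n = 3), with an SE of 0.14 (adjusted p = 0.0067). That is 1 of 10 genes, where 14.4% of 15531 genes were called and 6.77% were called lower. Without GE1 the mean was -0.86 with adjusted p = 0.0529, and leaving out GE2 or GE3 gave 0.0452 and 0.0434. With normexp it was -0.55, and over the settings that kept all arrays the adjusted p lay between 0.00179 and 0.00864.

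*E2F8* had the highest ratios of the family in A549, 0.42, 0.43 and 0.51, each further from 0 than its 95% limit. Its mean of 0.45 ± 0.05 (SD, n = 3) did not pass with the spread shared by all groups (SE 0.24, adjusted p = 0.252), and did with normexp and with the spread of the edited arrays alone (lowest adjusted p = 0.0106, highest 0.511 over all settings). *E2F1* had 0.17, 0.30 and 0.32, which passed with the spread of the edited arrays alone (adjusted p = 0.0303, against 0.646 in the shared fit and up to 0.818 in the others). *CCNE1* lay between 0.04 and 0.14, *RB1* between 0.02 and 0.12, *E2F2* between 0.05 and 0.18 and *E2F7* between 0.07 and 0.15. *CCNE2* lay between -0.40 and -0.08, *E2F3* between -0.19 and -0.04, and *RBL1* between -0.00 and 0.35. Apart from *CDK2* and *E2F8*, no ratio in A549 was further from 0 than that limit.

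A dye effect of a gene that is the same on every array drops out of a difference between treatments. *CDK2* was higher after siDONSON than after *LOXL2* editing by 0.91 with an SE of 0.19 (95% interval 0.46 to 1.36, adjusted p = 0.033). It was the 1 of 10 genes that passed, where 7.29% of 13656 genes were called. The call was lost without siDONSON-1 (0.96), siDONSON-3 (1.03), GE1 (0.83), GE2 (0.96) or GE3 (0.94), with adjusted p up to 0.13, and held without siDONSON-2 (0.73, adjusted p = 0.0486). With normexp the difference was 0.53. Cell line and treatment differ together in this comparison and cannot be told apart.

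For *miR-150-3p* minus the mean of the other 2 treatments, 0 of 10 genes passed by limma, where 1.74% of 12864 genes were called, and 7 had an unadjusted p under 0.05. All 10 differences were below 0, with a median of -1.06, though that of *RB1* (-0.13) ran up to 0.08 over the other settings. *CCNE1* had a difference of -1.15 with an SE of 0.24 (adjusted p = 0.0571), *E2F1* of -1.73 with an SE of 0.47 (adjusted p = 0.0965) and *E2F2* of -1.92 with an SE of 0.51 (adjusted p = 0.0938). Without SK-MES-1, 8 of 10 passed, where 14.1% of all genes did, and without siDONSON-3 only *CCNE1* did (-1.29, adjusted p = 0.0263). The difference for *CDK2* was -0.43 with an SE of 0.19 (95% interval -0.87 to 0.01, adjusted p = 0.242).

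The green channel shows the level of each gene in the control cells, given here in log2 units relative to the 75th percentile of the array, over the 18254 probes above background in green on all 8 arrays. Levels are compared between lines for the same gene, never between genes. Since EBC-1 and SK-MES-1 have 1 array each, the levels are a description with no test. Between the 3 arrays of SBC-3 or of A549, the SD of a family gene was at most 0.17. Of 60 differences between a pair of lines in 1 of the 10 genes, 19 were larger than 1 in size, where the share of all genes was 35.8% for EBC-1 against SK-MES-1, 46.4% for EBC-1 against SBC-3 and 40% for EBC-1 against A549. It was 44.7% for SK-MES-1 against SBC-3, 34.1% for SK-MES-1 against A549 and 39.9% for SBC-3 against A549.

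*CCNE1* was highest in SBC-3 (1.87 ± 0.02, SD, n = 3), followed by A549 (1.39 ± 0.02), SK-MES-1 (0.65) and EBC-1 (-0.16). *CCNE2* was also highest in SBC-3, at -2.18 ± 0.11, and lay between -3.28 and -2.97 in the other 3 lines, of which EBC-1 and A549 did not differ beyond the SD of A549 (0.06). *CDK2* had its highest level in EBC-1 (-2.09) and its lowest in SBC-3 (-3.06 ± 0.14), and SK-MES-1 (-2.98) did not differ from SBC-3 beyond that spread. With normexp SK-MES-1 was lower than SBC-3 (difference -0.33), and the difference of EBC-1 from SBC-3 was 0.36 in place of 0.97.

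*E2F1* had a level of 0.05 in EBC-1, -0.09 in SK-MES-1, -0.57 ± 0.01 in A549 and -2.36 ± 0.01 in SBC-3. *E2F2* followed the same order, with 0.83, 0.73, 0.28 ± 0.02 and -1.24 ± 0.02. EBC-1 and SK-MES-1 thus had the highest levels of both activators, 0.15 and 0.10 apart. *E2F3* was the reverse, with -1.23 ± 0.07 in SBC-3 and between -2.84 and -2.73 in the other lines. Within SBC-3, low *E2F1* and *E2F2* thus stood beside high *E2F3* relative to the other lines.

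*E2F7* was highest in SK-MES-1 (-0.85) and lowest in A549 (-2.74 ± 0.06), with SBC-3 at -1.85 ± 0.07 and EBC-1 at -2.14. *E2F8* differed by at most 0.75 between lines, *RB1* by at most 0.79. *RB1* was at -0.49 ± 0.02 in A549, -0.65 ± 0.05 in SBC-3, -1.11 in SK-MES-1 and -1.28 in EBC-1, so the small cell line did not have the lowest *RB1* signal. This is RNA at 1 probe, and whether SBC-3 makes working RB1 protein was not tested. *RBL1* was highest in A549 (-2.16 ± 0.04) and lowest in SBC-3 (-3.73 ± 0.17), a difference of 1.56 that was 0.20 with normexp, and the order of *RBL1* levels between SK-MES-1 and SBC-3 turned in that setting. Of the 60 differences, 8 changed sign with normexp, in *CCNE2*, *E2F8*, *RBL1* and *CDK2*, against 2 and 1 with the other scalings.

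**Figure D3:**
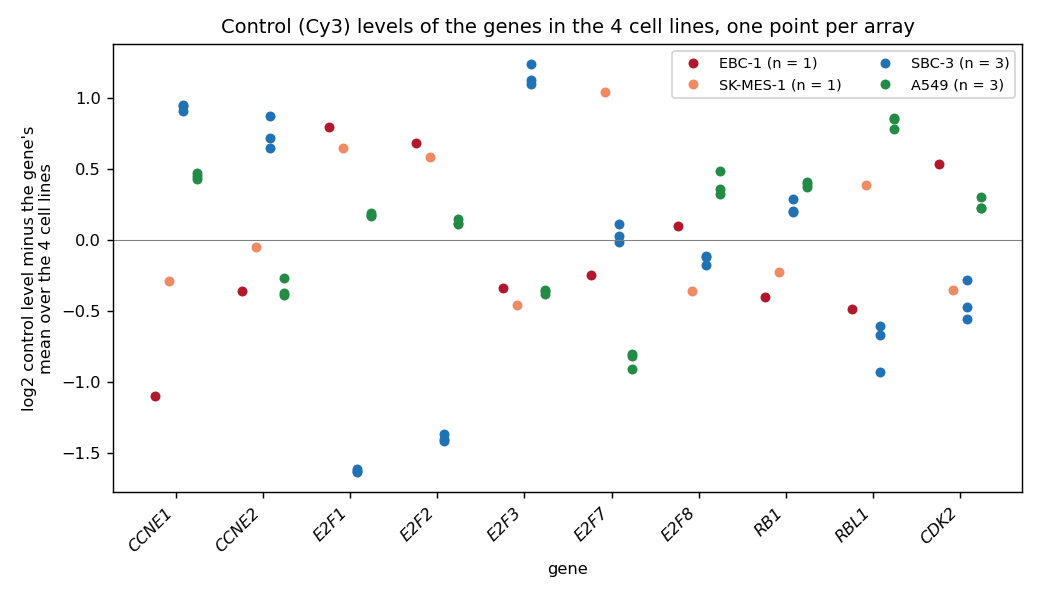
Control level in log2 units of each gene, minus the mean of the gene over the 4 cell lines (y axis), with 1 point per array (EBC-1 and SK-MES-1, n = 1; SBC-3 and A549, n = 3). *E2F1* and *E2F2* lie lowest in SBC-3, where *CCNE1*, *CCNE2* and *E2F3* lie highest.

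The other members of the pathway were read from 4 lists. The first holds the remaining 6 genes of the E2F, DP and pocket protein families. None of these 6 was below -1 on either *miR-150-3p* array (medians -0.02 and 0.02). By limma none passed after *miR-150-3p* or after the siRNAs (1 and 0 of 6 at an unadjusted p under 0.05). Of all genes, 2.9% were called lower and 2.47% higher after *miR-150-3p*, and 7.22% were called after the siRNAs. In EBC-1, *TFDP1*, the usual DNA-binding partner of E2F proteins, had -0.65, the repressor genes *E2F4* and *E2F6* had -0.22 and 0.29, *E2F5* had -0.24, *TFDP2* had 0.17 and *RBL2*, which encodes p130 of resting cells, had 0.57. In A549, *E2F5* rose by 0.41 with an SE of 0.10 (adjusted p = 0.0351), and the call was lost when any 1 of the edited arrays was left out (0.149 to 0.178).

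The genes that E2F proteins are known to switch on were low in EBC-1 as well. All 29 of 29 were below -1 in EBC-1 (median -1.88), as were 6.04% of all genes on that array. The list was chosen with earlier results of these data known, so this count is no independent evidence of their direction. *UHRF1* had -2.82, *CDK1* -2.82 and *GINS2* -2.79, and *EZH2* was nearest to 0 at -1.02. *EZH2* and *MCM4* are among the candidates that the study chose on this array. In SK-MES-1, 24 of 29 were below 0 and 1 was below -1, as were 47.5% and 1.27% of all genes. The median there was -0.15, and *UHRF1* had -1.02, *CDK1* -0.56, *GINS2* -0.50, *DNMT1* 0.03 and *MCM5* 0.17. Over both lines 2 of 29 fell by limma (25 were lower at an unadjusted p under 0.05), where 2.9% of all genes were called lower. The 2 were *UHRF1*, which maintains DNA methylation (-1.92, SE 0.34, adjusted p = 0.03), and *CHEK1*, the checkpoint kinase gene (-0.94, SE 0.22, adjusted p = 0.0494). Neither held without the EBC-1 array (*UHRF1* adjusted p = 0.0914, *CHEK1* 0.394), and *CHEK1* did not with normexp (-0.58). After the siRNAs and after *LOXL2* editing 0 of 29 passed by limma (1 and 0 at an unadjusted p under 0.05), with medians of -0.13 and -0.13. Of all genes, 7.22% and 14.4% were called in these 2 comparisons. An E2F site of the letters above was found before 10 of the 25 targets with a promoter searched (40%), counted by gene.

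**Figure D4:**
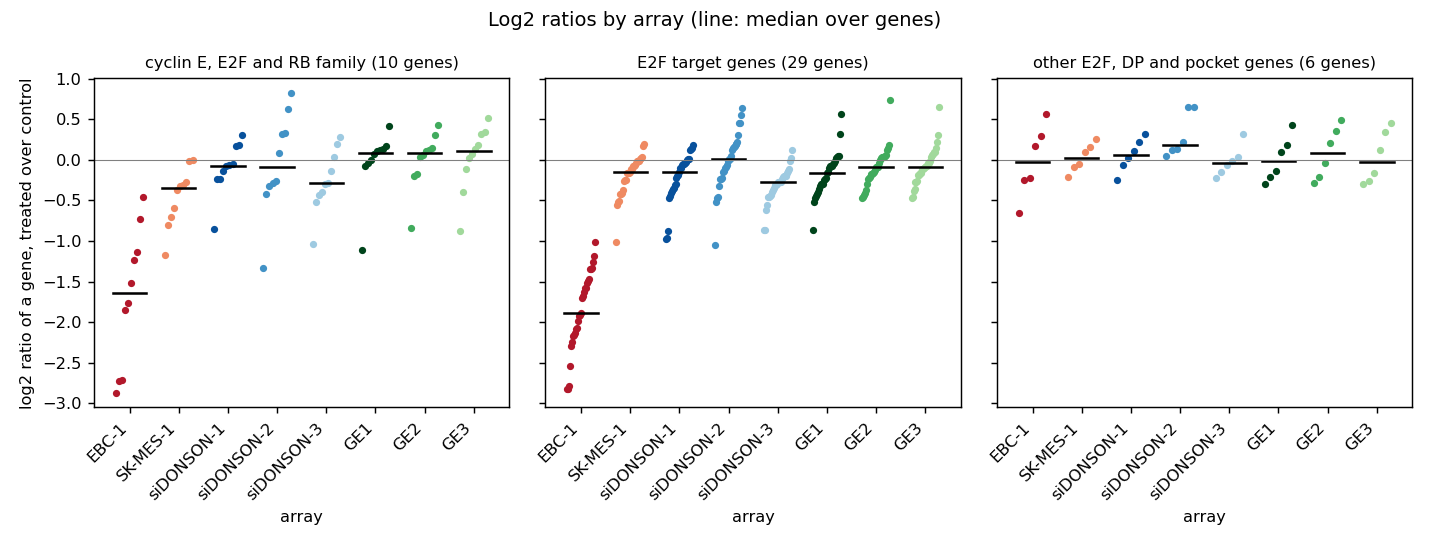
Log2 ratio (y axis) of each gene on the 8 arrays (x axis) for the 10 family genes, 29 E2F target genes and 6 other E2F, DP and pocket genes, sorted within an array, with a line at the median. In EBC-1 the medians are -1.64, -1.88 and -0.02, and on the other arrays the medians of all 3 lists lie between -0.35 and 0.18.

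MuvB and MYBL2, which act with pocket proteins or after them on cell cycle genes, gave 1 call of 6 after *miR-150-3p*. Of all genes, 2.9% were called lower there. *LIN52*, a MuvB subunit gene, had -1.07 and -0.50 in EBC-1 and SK-MES-1 and fell (-0.79, SE 0.17, adjusted p = 0.043), though not without EBC-1 (0.332), and with normexp the mean was -0.23. It was also the 1 gene of this list that passed for *miR-150-3p* minus the other treatments (-0.99, SE 0.19, adjusted p = 0.0483), where 1.74% of 12864 genes were called. That call was lost without EBC-1 (0.245), siDONSON-1 (0.0623), siDONSON-3 (0.07), GE1 (0.11), GE2 (0.134) or GE3 (0.121) and with no filter (0.0895), and with normexp the difference was -0.35. *MYBL2*, itself an E2F target, had -1.75 and -0.25, *RBBP4* had -0.88 and -0.20, *LIN54* had -0.66 and -0.17, *LIN9* had -0.06 and 0.17, and *LIN37* had 0.24 and 0.16.

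The list of cyclin-CDK2 regulators holds 17 genes, of which 15 had a value on both *miR-150-3p* arrays. After *miR-150-3p*, 1 of 15 rose, where 2.47% of all genes did, and 0 fell by limma (4 at an unadjusted p under 0.05). *CDKN1B*, which encodes the CDK2 inhibitor p27, had 0.71 and 0.61 in EBC-1 and SK-MES-1 and rose (0.66, SE 0.11, adjusted p = 0.0295, and 0.198 without EBC-1). With its brightest probe alone the mean of *CDKN1B* was 0.43 and did not pass. *CCNA2*, the cyclin that takes over CDK2 in S phase, had -1.84 and -0.25 in EBC-1 and SK-MES-1, the ubiquitin ligase gene *SKP2* had -1.48 and -0.24, and the phosphatase gene *CDC25A* had -1.69 and -0.03. These 3 means did not pass (adjusted p = 0.0923, 0.116 and 0.15). *CDKN1C* (0.21 and 0.71) and *CCNH* (0.23 and 0.44) had the next highest means, which did not pass either.

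*CDKN1A*, which encodes the inhibitor p21, rose after the siRNAs to *DONSON*, with 0.86, 1.22 and 0.46 (mean 0.85, SE 0.17, adjusted p = 0.0306, and 0.0649 to 0.0962 without 1 siRNA array), a call that normexp did not give either (0.22). It was the 1 of 16 regulators that passed there, where 4.01% of all genes rose. In A549, where *CDK2* fell, 3 of 16 regulators rose, where 7.58% of all genes did, and 0 fell by limma (0 at an unadjusted p under 0.05). The 3 are the CDK inhibitor genes. *CDKN1A* had 0.98, 0.89 and 0.96 (mean 0.94, SE 0.17, adjusted p = 0.0135), *CDKN1B* had 0.54, 0.64 and 0.41 (mean 0.53, SE 0.09, adjusted p = 0.0115), and *CDKN1C*, which encodes p57, had 2.49, 2.45 and 1.94 (mean 2.29, SE 0.35, adjusted p = 0.0073). When any 1 of the edited arrays was left out, the calls of *CDKN1A* (0.0763 to 0.0797) and *CDKN1B* (0.0557 to 0.0999) were lost, and that of *CDKN1C* was lost without GE2 (0.0537). With normexp the means were 0.39, 0.41 and 1.24, and with its brightest probe *CDKN1B* did not pass (0.34, adjusted p = 0.0501). Between the siRNAs and *LOXL2* editing, 2 of 16 differed by limma, where 7.29% of 13656 genes were called. *CDKN1B* differed by -0.59 (SE 0.13, adjusted p = 0.0354) and *CDKN1C* by -2.49 (SE 0.49, adjusted p = 0.0252), both lower after the siRNAs. Both calls were lost with the replicate number as a block (0.0744 and 0.0639) and when any 1 of the edited arrays was left out (0.0971 to 0.157 and 0.0673 to 0.0955). That of *CDKN1B* was also lost without siDONSON-3 (0.0843) and with no filter (0.0688), and that of *CDKN1C* without siDONSON-1 (0.0604) and with normexp (-1.47, adjusted p = 0.0867).

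**Figure D5:**
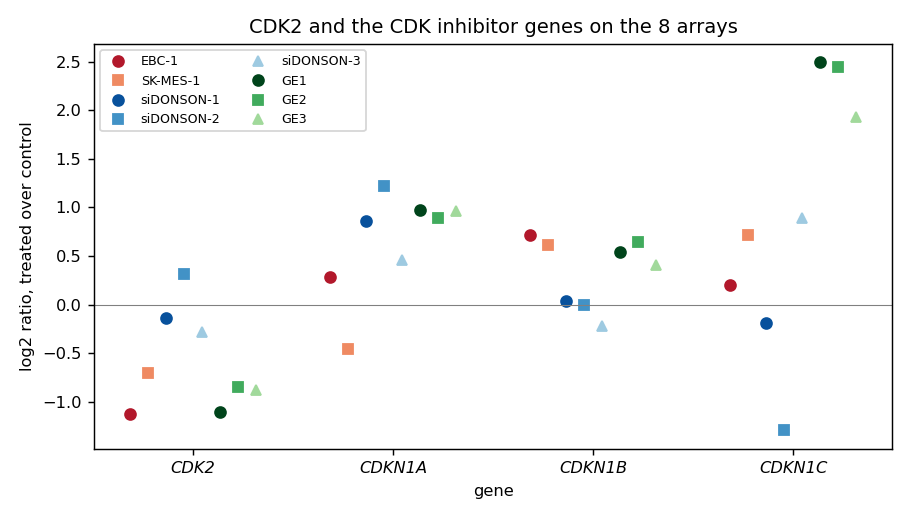
Log2 ratio (treated over control, y axis) of *CDK2* and of the 3 CDK inhibitor genes on the 8 arrays (points colored by array). *CDK2* lies between -1.11 and -0.84 in the edited A549 arrays, where *CDKN1C* lies between 1.94 and 2.49, and *CDKN1A* is above 0 on every array but SK-MES-1 (-0.46).

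The genes with the most similar ratios over the 8 arrays were taken by the root mean square (RMS) difference, among 12863 genes with a value on every array. Nearest to *E2F2* were *MND1* (RMS 0.207), *E2F1* (0.221) and *CENPU* (0.228). A family member was thus the second of 12863 genes, and all 3 were low in EBC-1, at -2.91, -2.72 and -3.04. Nearest to *CCNE1* were *SFPQ* (0.248), *TMEM179B* (0.253) and *BLTP2* (0.275), which were between -1.39 and -0.90 on both *miR-150-3p* arrays. Nearest to *RB1* were *TTL* (0.175), *BUD23* (0.199) and *DBI* (0.214), and their lowest value was that of siDONSON-2, from -1.59 to -1.05. None of the genes nearest to *CCNE1* or *RB1* belongs to the lists above.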

How the data were processed

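RNA of 8 treated cell samples (Cy5) and their controls (Cy3) was measured on 8 arrays of 1 slide, so a slide effect could not be fitted. The authors deposited the output of Agilent Feature Extraction 12.1.1.1 (build hg19 in the file header), whose red and green intensities are background-subtracted and dye-normalized. The deposited table of log10 ratios is the same (largest difference 0). The red over green log2 ratio was calculated here from the deposited processed intensities, without control spots and outlier spots (81 to 133 per array, 0 saturated). A gene is the mean of its probes well above background in at least 1 channel, each averaged over its spots. At 41.1% to 46.4% of spots the green channel was above background. Precision is limited by the number of arrays. Names came from RefSeq (24782 of 50096 accessions matched).

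limma 3.58.1 in R 4.3.3 fitted 3 groups to all 8 arrays (5 residual degrees of freedom), and the 2 *miR-150-3p* lines count as 2 samples. Each mean was tested against 0, and 2 differences between groups were tested, with Benjamini-Hochberg adjustment at 0.05 (two-sided). Gene-specific dye bias remains in the tests against 0. The fit was tested on simulated data. The 10 genes, the lists and the tests were chosen with earlier results of these data known. Named genes are the 10 members, the targeted genes, all genes of lists of up to 8, the 3 lowest and 3 highest of longer lists, and the 3 genes nearest to *CCNE1*, *E2F2* and *RB1*; other list genes past the test were named after their values were seen. Alternatives were normexp (offset 50) with loess on median signals, other filters on dim probes, the brightest probe, median centring, the deposited ratios, leaving out each array, a group's own spread, and a replicate block. Control levels were also rescaled. A further small cell marker that was chosen is not reported here.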

Additional observations from a re-analysis of the deposited data

Results flagged for a closer look

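*CDK2* is the gene of the family whose effect differed between treatments by a test of the difference itself. It was higher after the siRNAs to *DONSON* in SBC-3 than after *LOXL2* editing in A549 by 0.91 on the log2 scale (adjusted p = 0.033). The 3 siRNA arrays had -0.14, 0.31 and -0.28 and the 3 edited arrays -1.11, -0.84 and -0.88. By limma, 7.29% of 13656 genes were called in this comparison. The call of *CDK2* held in 6 of 13 other settings, with adjusted p between 0.0129 and 0.13. Cell line and treatment cannot be told apart here.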

How the results depend on the processing

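The count of family genes called after *miR-150-3p* (2) was 4 with normexp or with both channels above background (5.19% of all genes lower in the latter), 1 with no filter on dim probes, 0 with the group's own spread (6 at an unadjusted p under 0.05) and 0 to 9 when an array was left out. After *LOXL2* editing (1) it was 2 with normexp (20.5% of all genes), 3 with the own spread (37.8%) and 0 to 1 when an array was left out. For siDONSON minus *LOXL2* editing (1) it was 0 with no filter (1 at an unadjusted p under 0.05) and 0 to 1 when an array was left out. For *miR-150-3p* minus the others (0) it was 1 with both channels above background (2.96%) and 0 to 8 when an array was left out. After siDONSON limma called 0 in every setting run (0 or 1 at an unadjusted p under 0.05). The count of control levels past 1 (19) was 12 with normexp. The sign of 8 siDONSON means turned when an array was left out, with ranges of -0.69 to 0.052 (*CCNE2*, above 0 without siDONSON-1), -0.32 to 0.044 (*E2F1*, above 0 without siDONSON-3), -0.33 to 0.29 (*E2F2*, below 0 without siDONSON-2), -0.11 to 0.12 (*E2F7*, above 0 without siDONSON-3), -0.28 to 0.083 (*E2F8*), -0.57 to 0.23 (*RB1*) and -0.19 to 0.054 (*RBL1*, these 3 above 0 without siDONSON-2), and -0.21 to 0.088 (*CDK2*, above 0 without siDONSON-1 at 0.016 or siDONSON-3). With normexp it turned for *E2F3* (0.011), *E2F7* (0.085) and *E2F8* (0.0009), and with the brightest probe for *E2F3* (0.06) and *E2F7* (0.11). After *LOXL2* editing that of *E2F3* turned with normexp (0.0086) and the brightest probe (0.061). The causes were not tested. In all 8 arrays, 765 of 14230 genes were called after *miR-150-3p*, 1 without EBC-1 and 2973 without SK-MES-1. Ratios of dim genes were closer to 0 with normexp.

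With the replicate number as a block, siDONSON minus *LOXL2* editing gave 0 calls among the family genes (3 at an unadjusted p under 0.05), with *CDK2* still at 0.91. Arrays with the same number did not deviate together (correlations of -0.02, -0.01 and -0.01), no array correlated best with its own number, and the numbers do not pair them.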
